A study of Mus musculus with 2 samples.

Results

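The genes described here are 10 acute-phase type genes: Lcn2, Hp, C3, Il1rn, Serpina3g, Serpina3n, Saa3, Cebpb, Cebpd and Il4ra, out of 32245 genes in the tables. They were chosen from their measured levels in chondrocytes, fibroblasts and marrow stroma of these same libraries and by genotype, so those levels are a description and no test was made on them. Their values were set out by cell class and genotype, with chondrocytes contrasted with fibroblasts and with marrow stroma.

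The acute-phase response is the change in secreted proteins that follows injury or infection. It is best known in liver, where interleukin-6 family cytokines act through the receptor subunit gp130 and the transcription factor STAT3, and where interleukin-1 acts together with C/EBP transcription factors. Stromal cells also make some of these proteins: complement components in connective tissue fibroblasts, and a range of secreted factors in the CXCL12-producing reticular cells of bone marrow that carry the leptin receptor.

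Single-cell RNA sequencing was performed on knee joint cells of female mice at 1 month of age, with 1 library for each genotype. The control was Stat3fl/fl, with both Stat3 copies carrying loxP sites and no Cre, and the mutant was labelled Acan-Cre+/Cre;Stat3fl/fl, so both groups carried the floxed Stat3 alleles. Per the study's methods, Cre is a tamoxifen-inducible form (CreERT2) expressed from 1 copy of the aggrecan gene Acan, a gene of cartilage cells, and the drug was given shortly after birth. Each library pooled 2 to 3 mice, and joints were digested with enzymes before sorting for live cells lacking CD31, Ter119 and CD45, the surface markers of endothelial, red blood and white blood cells. With pooled mice and 1 library a genotype there is no replicate check and no spread between animals. The mutation, the mice and the preparation cannot be told apart, and every comparison below is between these 2 libraries.

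There were 4903 cells in the control library, at a median depth of 4344 estimated UMIs (unique molecular identifiers, which count captured transcripts), and 1340 in the mutant library, at 3743. The libraries shared 2 cell barcodes. Levels are CPM, the estimated UMIs of a gene summed over the cells of a class per 1000000 UMIs of those cells. Chondrocytes were the 501 control and 332 mutant cells that carry the deposited mark of the study's selection on Sox9 and Col2a1. Taking every cell with Sox9 and Col2a1, marked or not, gave 1013 control cells but only 335 mutant cells. The mark thus passed over many control cells and few mutant ones, and no marked cell held a globin UMI. What else set marked cells apart was not tested. Fibroblasts were unmarked cells above 0 for at least 2 of Pi16, Cd34 and Dpp4, which left 79 control and 17 mutant cells. Marrow stroma was gated on Adipoq together with Lepr and held 83 and 34 cells. Gates on other markers gave 5 further classes, lining, osteoblast, tendon, mural and erythroid. Cells passing 2 or more gates were left out of the classes, as were cells above 0 for Ptprc, Pecam1 or Cdh5 from the stromal classes. No doublet caller was run.

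The labels were checked against markers. Chondrocytes held Acan at 4837 CPM (control) and 1697 CPM (mutant), and Col9a1 at 3763 and 2456 CPM. Marrow stroma held the chemokine Cxcl12, which the gate did not use, at 13581 and 13162 CPM, against 186 and 315 CPM in fibroblasts. Control marrow stroma also held Col2a1 at 2104 CPM, with Acan above 0 in 8 of its 83 cells, against 22.8 CPM of Col2a1 in mutant marrow stroma. Stat3 itself was at 142 CPM in control and 103 CPM in mutant chondrocytes, at 121 and 178 CPM in fibroblasts, and at 155 and 196 CPM in marrow stroma, and reads from the 3′ end cannot tell transcripts with the floxed exons from those lacking them.

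The classes differed between libraries in other ways that run beside the results. Median depth was 5876 and 8595 UMIs in control and mutant chondrocytes, 3191 and 4843 in fibroblasts, and 2800 and 5481 in marrow stroma. Cells above 5% mitochondrial counts were 3.99% of control and 20.2% of mutant chondrocytes, 6.33% and 11.8% of fibroblasts, and 2.41% and 23.5% of marrow stroma. Globin UMIs were found in 68.4% of control and 5.88% of mutant fibroblasts, and in 68.7% of control and 0% of mutant marrow stroma. The share was 0% in chondrocytes of both libraries, against 75.7% of all control cells and 8.43% of all mutant cells. Neutrophil markers were near 0: of 10 genes, the summed level was 1.18 and 2.38 CPM in chondrocytes, 0 in fibroblasts of both libraries, and 6.83 and 14.5 CPM in marrow stroma, where 8 of the 10, among them S100a8 and S100a9, were at 0 in both libraries. Of 9 macrophage markers, the sum was 4.20 and 11.6 CPM in chondrocytes, 0 and 50.9 CPM in fibroblasts, and 14.5 and 4.88 CPM in marrow stroma, and Adgre1 and C1qa were at 0 in all 3. The mutant fibroblast value came from Cd68 and Lyz2. The part of any of these in the results below was not tested.

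The regions just before 2 of the genes are shown because each holds a match to a motif of the regulators named above. C3 was highest in fibroblasts and Serpina3g in marrow stroma. Both are 250 bases before the RefSeq gene start on GRCm38.p6, printed 5′ to 3′ on the strand of the gene. C3 lies on the minus strand at chr17:57228137-57228386, with capitals for a C/EBP match that begins at position -45 from the start. Serpina3g lies on the plus strand at chr12:104235897-104236146, with capitals for a STAT match that begins at position -33 from the start.
C3: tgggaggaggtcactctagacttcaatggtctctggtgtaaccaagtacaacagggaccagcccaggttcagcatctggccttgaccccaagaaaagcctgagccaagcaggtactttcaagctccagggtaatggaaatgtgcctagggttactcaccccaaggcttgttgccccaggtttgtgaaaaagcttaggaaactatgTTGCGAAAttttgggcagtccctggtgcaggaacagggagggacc
Serpina3g: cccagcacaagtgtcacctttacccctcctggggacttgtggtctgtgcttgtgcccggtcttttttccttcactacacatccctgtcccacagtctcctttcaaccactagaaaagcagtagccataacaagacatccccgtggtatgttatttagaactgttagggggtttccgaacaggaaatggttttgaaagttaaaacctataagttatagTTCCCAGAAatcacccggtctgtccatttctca

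The motifs searched were TTCNNNGAA for STAT and, on both strands, TTGCNNAA for C/EBP. Of 32851 promoters of the same length, 7.02% held the STAT letters and 9.56% the C/EBP letters. No window of these genes held both. A C/EBP match also stood in the windows of Lcn2, at -216, and of Saa3, at -99. Il1rn, with 3 listed starts, Serpina3n, Cebpb and Il4ra had no match to either motif, and Hp and Cebpd had no entry among the 8 of 10 genes matched. A match is a description of the letters and does not show that a factor binds there.

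Marrow stroma stood out for a group of secreted proteins and inhibitors. Hp, Il1rn and Serpina3g were 61.4 to 292 times as high there as in chondrocytes of the same library, and were not detected in a single fibroblast of either. Their order within marrow stroma was the same in both libraries, with Hp highest, then Il1rn, then Serpina3g.

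Hp (ENSMUSG00000031722, chromosome 8, 109575128 to 109579172, minus strand, with all gene positions from Gencode M21 on GRCm38) encodes haptoglobin, which binds free haemoglobin in plasma. It was at 1816 CPM in control and 3466 CPM in mutant marrow stroma, against 10.2 and 15.8 CPM in chondrocytes and 0 in fibroblasts. These are log2 ratios of marrow stroma to chondrocytes of 7.34 and 7.69, on the scale of log2(CPM + 1) used for all log2 ratios here. Hp was above 0 in 70 of 83 control cells (84.3%, exact 95% binomial interval 74.7% to 91.4%) and 32 of 34 mutant cells (94.1%, 80.3% to 99.3%) of marrow stroma. Such intervals (Clopper-Pearson) cover counting error only. The fibroblast count of 0 in 79 control and 17 mutant cells allows shares of up to 3.8% and 17.6%. The Hp level of marrow stroma was 166-fold a floor of 3 UMIs over the fibroblasts in the control and 90.7-fold in the mutant library. That floor takes no account of UMIs gathering in single cells, so these folds are not bounds on the difference between the classes. In control erythroid cells, read as a level for free RNA, Hp was above 0 in 0.533% of 1500 cells at a median of 6105 UMIs.

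The signal was spread over many cells. The 3 highest cells supplied 15.2% of control and 31.7% of mutant Hp UMIs in marrow stroma. In all cells of the library, 95.6% of control and 92.5% of mutant Hp UMIs lay in cells with Adipoq or Lepr above 0. Among chondrocytes, cells above 0 for Hp were 1.4% (control) and 3.61% (mutant), and 3 cells supplied 72.9% and 64.2% of those UMIs. Mutant chondrocytes also held more of the marrow stroma markers, with Adipoq at 36.9 against 5.81 CPM and Cxcl12 at 231 against 64.8 CPM, and their part in the Hp value was not tested.

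Il1rn (ENSMUSG00000026981, chromosome 2, 24336853 to 24351494, plus strand) encodes the interleukin-1 receptor antagonist, which blocks the receptor without signalling. Its level was 460.4 CPM in control and 799 CPM in mutant marrow stroma, against 1.86 and 2.73 CPM in chondrocytes and 0 in fibroblasts, log2 ratios to chondrocytes of 7.34 and 7.74. It was above 0 in 49 of 83 control (59%, 47.7% to 69.7%) and 21 of 34 mutant cells (61.8%, 43.6% to 77.8%). The shares lay within each other's counting intervals, while the median positive cell held 0.998 UMI in control cells and 4 in mutant cells. The Il1rn level of marrow stroma was 42.1-fold the floor over fibroblasts in the control and 20.9-fold in the mutant library, which again are not bounds. Il1rn was at 0 in lining and tendon cells of both libraries.

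Serpina3g (ENSMUSG00000041481, chromosome 12, 104236245 to 104241939, plus strand) encodes a serine protease inhibitor of the alpha-1-antichymotrypsin family. It was at 337 CPM in control and 180.4 CPM in mutant marrow stroma, against 3.31 and 2.94 CPM in chondrocytes and 0 in fibroblasts, log2 ratios to chondrocytes of 6.30 and 5.53. Cells above 0 were 48 of 83 in the control (57.8%, 46.5% to 68.6%) and 15 of 34 in the mutant library (44.1%, 27.2% to 62.1%). Its level was lower in the mutant library, whereas those of Hp and Il1rn were higher, and the counting intervals of its shares overlap. Its paralog Serpina3f, from the same gene cluster, was at 179 and 113 CPM in marrow stroma and 0 in fibroblasts, and how shared reads were split between the Serpina3 copies is uncertain.

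The 3 genes often stood in the same cells. Of control marrow stroma cells, 31 of 83 had all 3 above 0, 27 had 2, 20 had 1 and 5 had 0. In the mutant library these numbers were 10, 16, 6 and 2 of 34. Over all cells of a library, cells with Adipoq or Lepr above 0 held 96.7% of control and 91.9% of mutant Il1rn UMIs, and 91.3% and 93.3% of those of Serpina3g. The plot of levels by class shows Hp, Il1rn and Serpina3g standing up in marrow stroma and C3 in fibroblasts.

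**Figure D1:**
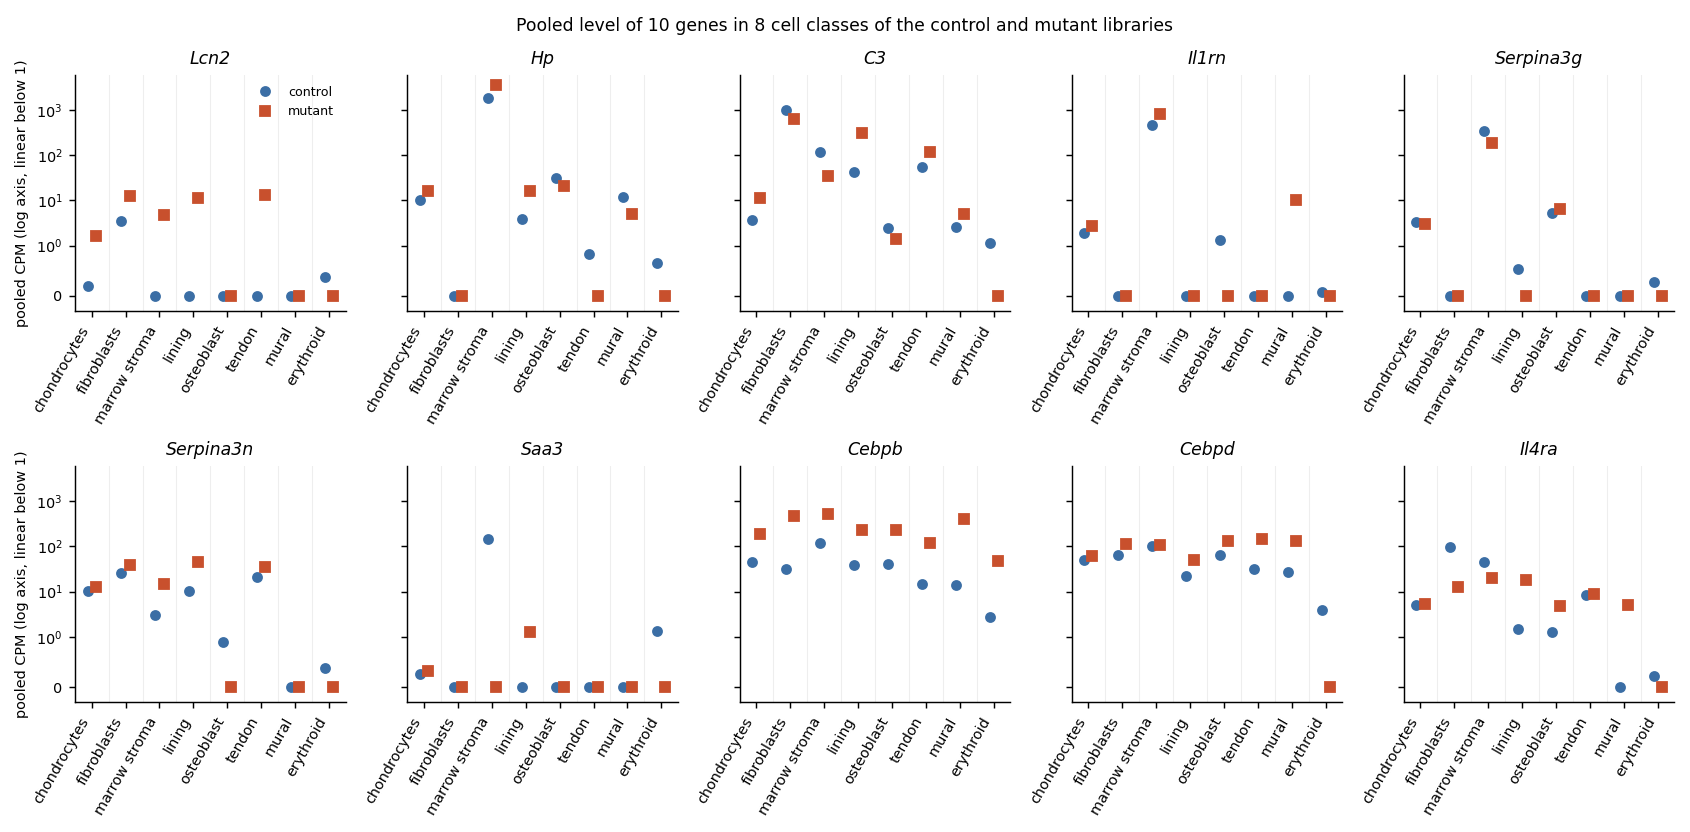
Pooled CPM of each of the 10 genes in chondrocytes, fibroblasts, marrow stroma and the other classes, with 1 point per library and class, on an axis that is logarithmic above 1 CPM and linear below. Hp stands at 1816 and 3466 CPM in marrow stroma and at 0 in fibroblasts, while C3 stands at 977 and 624 CPM in fibroblasts.

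C3 (ENSMUSG00000024164, chromosome 17, 57203970 to 57228136, minus strand), the central component of complement, had its highest class in fibroblasts. It was at 977 CPM in control and 624 CPM in mutant fibroblasts, against 3.74 and 11.2 CPM in chondrocytes, log2 ratios of 7.69 and 5.68. It was above 0 in 39 of 79 control (49.4%, 37.9% to 60.9%) and 8 of 17 mutant fibroblasts (47.1%, 23% to 72.2%), against 1.8% and 4.22% of chondrocytes and 0.267% of control erythroid cells. In the 8 mutant cells, the 3 highest supplied 77.6% of the UMIs. C3 was carried by cells of each of the 3 gate markers: control fibroblasts above 0 for Pi16, for Cd34 and for Dpp4 held 1025, 962 and 1009 CPM. In mutant fibroblasts the levels were less even, at 939.7 CPM in 7 cells above 0 for Pi16, 624 CPM in 17 for Cd34 and 194 CPM in 13 for Dpp4.

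Over the whole libraries C3 went with Cd34. Over all control cells C3 was at 477 CPM where Cd34 was above 0 and 11.9 CPM where it was not, and over all mutant cells at 663 and 18.0 CPM. In marrow stroma C3 was at 116 CPM in control cells and 34.0 CPM in mutant cells, the latter from 6.93 UMIs in 2 cells, with log2 ratios to chondrocytes of 4.62 and 1.52. Without the 3 highest cells of each class, no C3 UMI was left in mutant marrow stroma and its log2 ratio to chondrocytes was -2.74.

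In lining cells, gated on synovial genes, C3 was at 42.2 CPM in control cells and 304 CPM in mutant cells, in 9 of 279 (3.23%, 1.49% to 6.04%) and 24 of 96 cells (25%, 16.7% to 34.9%). After thinning each cell to 1000 UMIs the expected shares were 2.23% and 15.3%, over 267 and 93 cells. Cells of this class above 0 for Cd34 numbered 31 of 279 in control cells and 36 of 96 in mutant cells. C3 was at 349 and 755 CPM in those cells, and at 3.68 and 59.2 CPM in the lining cells without Cd34. The make-up of the class with respect to Cd34 thus moved with the C3 level, and its part was not tested.

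Serpina3n (ENSMUSG00000021091, chromosome 12, 104406729 to 104414329, plus strand), the main mouse counterpart of alpha-1-antichymotrypsin, did not share the marrow stroma pattern of Serpina3g. It was at 25.3 and 38.2 CPM in control and mutant fibroblasts, 10.1 and 12.6 CPM in chondrocytes, and 3 and 14.5 CPM in marrow stroma, where 1 cell in each library held it. The mutant fibroblast value rested on 3 UMIs in 2 of 17 cells. The log2 ratio of fibroblasts to chondrocytes was 1.24 in control cells and 1.52 in mutant cells, and without the 3 highest cells of each class, which left no UMI in mutant fibroblasts, the latter was -3.43. The level in lining cells was 10.5 CPM in the control, in 9 of 279 cells, and 46.0 CPM in the mutant library, in 20 of 96 cells.

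Saa3 and Lcn2 were scarce. Saa3 (ENSMUSG00000040026, chromosome 7, 46711998 to 46715700, minus strand) encodes a serum amyloid A protein made outside liver. Its 142 CPM in control marrow stroma came from 37.9 UMIs in 1 cell, and it was at 0 in mutant marrow stroma and in fibroblasts of both libraries. A count of 0 in 34 cells allows a share of up to 8.82%. Saa3 was above 0 in 22 control and 4 mutant cells of the whole libraries, and its share of control chondrocytes, 0.2%, was below that in erythroid cells, 0.733%, and is read as background.

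Lcn2 (ENSMUSG00000026822, chromosome 2, 32384633 to 32388252, minus strand) encodes lipocalin 2, which binds bacterial iron carriers and is also abundant in neutrophils. It was above 0 in 9 of 4903 control cells (0.184%, 0.084% to 0.348%) and 21 of 1340 mutant cells (1.57%, 0.973% to 2.39%). Of the 9 control cells, 5 had the leukocyte gene Ptprc above 0, and 1 cell supplied 61% of the UMIs. Of the 21 mutant cells, 1 had Ptprc and 11 had Pdgfra above 0. In chondrocytes, fibroblasts and marrow stroma, Lcn2 was above 0 in 1, 1 and 0 control cells and in 4, 1 and 1 mutant cells.

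**Figure D2:**
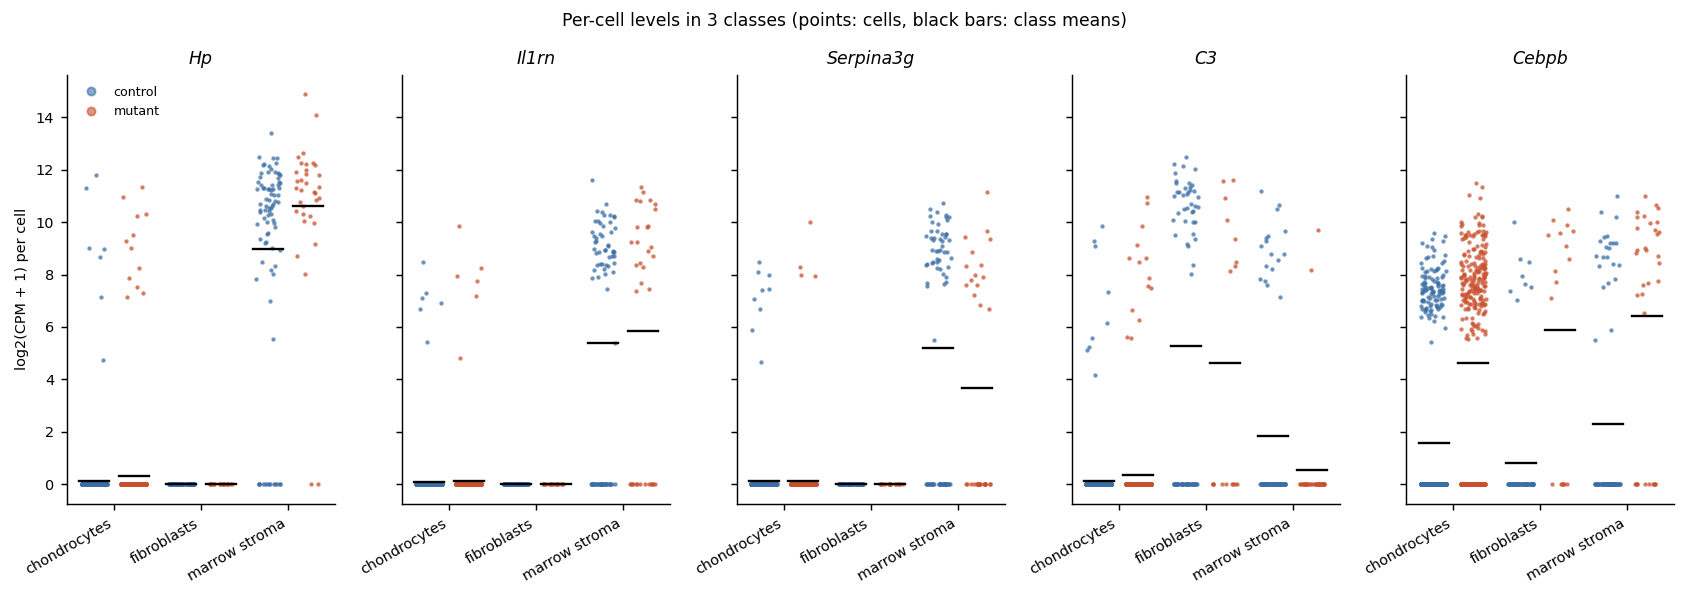
Values of single cells, log2(CPM + 1), in chondrocytes, fibroblasts and marrow stroma of each library. Hp is above 0 in 70 of 83 control and 32 of 34 mutant marrow stroma cells, and C3 in 39 of 79 control and 8 of 17 mutant fibroblasts.

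Of the 2 transcription factors, Cebpb differed more between the libraries than between chondrocytes, fibroblasts and marrow stroma of a library. Cebpb (ENSMUSG00000056501, chromosome 2, 167688915 to 167690418, plus strand) encodes C/EBP beta, an activator of many acute-phase genes. In chondrocytes it was at 44.3 CPM in control cells and 188 CPM in mutant cells, a log2 ratio of 2.06. In fibroblasts it was at 31.2 and 470.4 CPM (3.87), and in marrow stroma at 120.3 and 524 CPM (2.11). It was also higher in the mutant library in the other 5 classes, at 39.1 and 228 CPM in lining, 40.9 and 226 CPM in osteoblast, 14.7 and 117 CPM in tendon and 13.8 and 397 CPM in mural cells. The control mural value came from 1.93 UMIs in 2 of 67 cells, below the floor of 21.3 CPM for 3 UMIs in that class. In erythroid cells Cebpb was at 2.81 and 46.5 CPM, where the mutant value came from 2.99 UMIs in 1 of 29 cells. The classes ranged from 2.81 to 120.3 CPM in control cells and from 46.5 to 524 CPM in mutant cells.

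More cells carried Cebpb, too. It was above 0 in 21% of control (17.5% to 24.8%) and 58.1% of mutant chondrocytes (52.6% to 63.5%), 10.1% (4.47% to 19%) and 64.7% (38.3% to 85.8%) of fibroblasts, and 26.5% (17.4% to 37.3%) and 70.6% (52.5% to 84.9%) of marrow stroma. In none of these 3 classes did the counting intervals overlap, but they do not cover differences between mice or preparations. Since mutant cells of these classes were deeper, shares were also computed after thinning to 1000 UMIs. They were 4.46% and 16.9% in chondrocytes (488 and 320 cells), 3.24% and 33.6% in fibroblasts (78 and 16), and 11.4% and 35.1% in marrow stroma (79 and 34). In control erythroid cells the unthinned share was 2.33%. The class contrasts were smaller: the log2 ratio of marrow stroma to chondrocytes was 1.42 in control cells and 1.47 in mutant cells, and that of fibroblasts to chondrocytes -0.49 and 1.32.

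Cebpb is also known to respond to cell stress, so it was set beside 18 genes induced by tissue dissociation, such as Fos, Jun and Hspa1a. Their summed level was 15316 CPM in control and 13679 CPM in mutant chondrocytes, 12785 and 17970.5 CPM in fibroblasts, and 16926 and 19064 CPM in marrow stroma. Of the 18, the mutant library was at least 2-fold higher for 1, 7 and 2 genes in these classes, beside 3.76%, 15.5% and 11.8% of all genes counted, and at least 2-fold lower for 0, beside 5.59%, 23.6% and 17.5%. Within a library, chondrocytes above 0 for Cebpb had a median stress sum of 14931 CPM in control cells and 12487 CPM in mutant cells, against 12313 and 8923 CPM in those at 0. In marrow stroma these medians were 27197 and 16793 CPM against 11172 and 15911 CPM, and in fibroblasts 10244 and 21766 CPM against 12755 and 8316 CPM. The stress sum was higher in cells with Cebpb in 5 of the 6 sets of cells, with control fibroblasts the exception, and the part of dissociation stress in the Cebpb values was not tested. In cells at most 5% mitochondrial, the log2 ratio of mutant to control for Cebpb was 2.12 in chondrocytes, 4.26 in fibroblasts and 2.25 in marrow stroma.

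Cebpd (ENSMUSG00000071637, chromosome 16, 15887286 to 15891031, plus strand) encodes C/EBP delta, a related factor. It was at 48.7 and 62.7 CPM in chondrocytes, 63.6 and 114 CPM in fibroblasts, and 103 and 108 CPM in marrow stroma of the control and mutant library. The log2 ratios of mutant to control were 0.36, 0.83 and 0.06. In tendon cells Cebpd was at 31.9 and 148 CPM and in mural cells at 27.2 and 130.5 CPM, so the difference between the libraries was larger in these classes than in the 3 contrasted above. Erythroid cells had 4 CPM in control cells and 0 in mutant cells.

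**Figure D3:**
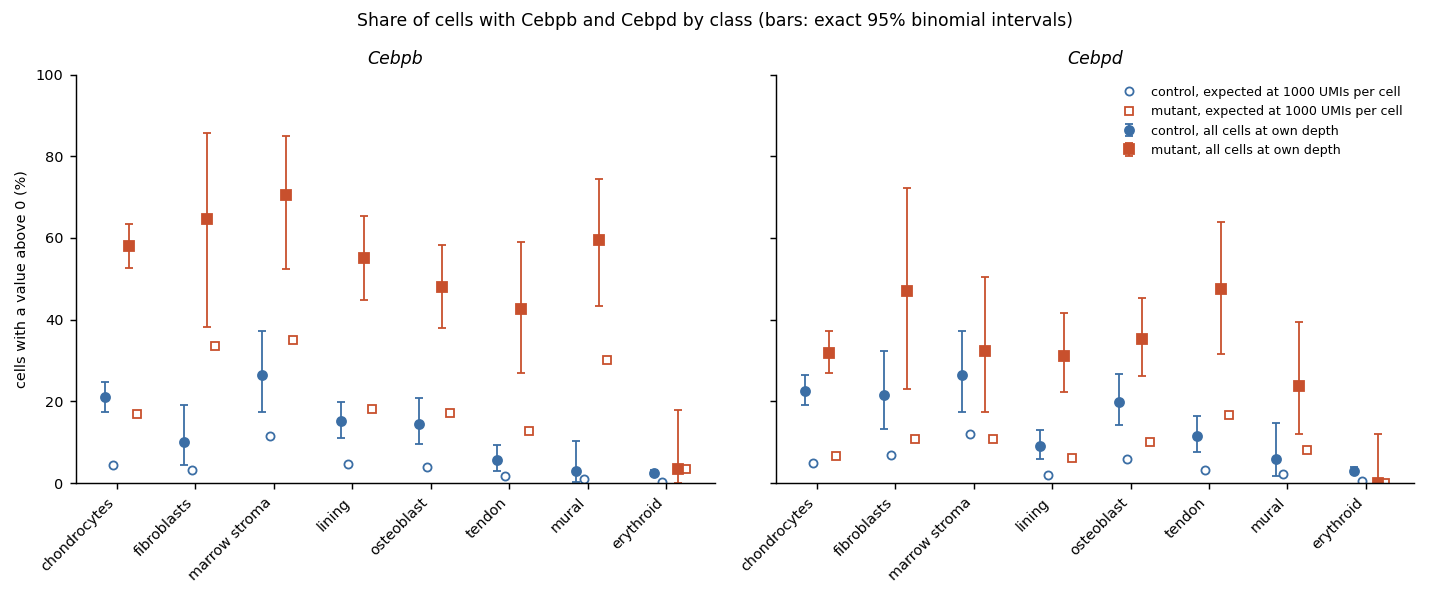
Percent of cells above 0 for Cebpb and Cebpd in each class and library, with exact 95% binomial intervals that cover counting error only. For Cebpb the mutant shares are 58.1% in chondrocytes, 64.7% in fibroblasts and 70.6% in marrow stroma, against 21%, 10.1% and 26.5% in the control.

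Il4ra (ENSMUSG00000030748, chromosome 7, 125552120 to 125579474, plus strand) encodes the receptor subunit shared by interleukin-4 and interleukin-13, and is the receptor among these genes. It was at 97.6 CPM in control fibroblasts, 44.0 CPM in control marrow stroma and 5.05 CPM in control chondrocytes. The mutant levels were 12.7, 19.6 and 5.19 CPM. Control fibroblasts above 0 were 20 of 79 (25.3%, 16.2% to 36.4%), but the mutant value came from 0.997 UMI in 1 of 17 cells (5.88%, 0.149% to 28.7%), and these intervals overlap. The log2 ratio to chondrocytes was 4.02 in fibroblasts and 2.89 in marrow stroma of the control, and 1.15 and 1.73 in the mutant library. In lining cells the order of the libraries was the opposite, at 1.47 CPM in 2 of 279 control cells and 17.9 CPM in 10 of 96 mutant cells.

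The class contrasts were then counted over genes with a mean of at least 10 CPM in the 2 groups, calling those at least 2-fold apart. Of 5 such acute-phase type genes in control fibroblasts, 3 were higher than in chondrocytes and 0 lower (median log2 ratio 1.24, against 0.21 over all genes counted). Over all genes 23.7% were higher and 12.7% lower. In the mutant library 3 of 4 were higher and 0 lower (1.42 against 0.26), with 27% of all genes higher and 16.9% lower. In control marrow stroma 8 of 8 were higher than in chondrocytes and 0 lower (5.46 against 0.37), with 27.9% of all genes higher and 11.4% lower, and Saa3 among the 8 rests on 1 cell. In the mutant library 6 of 8 were higher and 0 lower (1.63 against 0.50), with 30.7% and 11.8% of all genes. These genes were chosen on these contrasts, so the counts describe the choice. The filter adds to this, since a gene can pass it through the higher group alone. In control marrow stroma C3, Il1rn, Serpina3g, Saa3 and Il4ra passed that way, so their direction was fixed. The same held for C3 and Il4ra in control fibroblasts, and for Il1rn, Serpina3g and Il4ra in mutant marrow stroma. In control marrow stroma the filter dropped Serpina3n (log2 ratio -1.47) and Lcn2 (-0.25). In control fibroblasts it dropped Hp (-3.48), Serpina3g (-2.11), Il1rn (-1.51), Saa3 (-0.34) and Lcn2 (1.90).

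Between the libraries, fewer of them were 2-fold apart. In chondrocytes 1 of 4 genes, Cebpb, was higher in the mutant library and 0 lower (median log2 ratio of mutant to control 0.47, against -0.18 over all genes counted), with 3.76% of all genes higher and 5.59% lower. In fibroblasts 1 of 5 was higher, again Cebpb, and 1 lower, Il4ra (0.58 against -0.13), with 15.5% and 23.6% of all genes. In marrow stroma 1 of 8 was higher, Cebpb, and 3 lower, C3, Saa3 and Il4ra (-0.42 against -0.10), with 11.8% and 17.5% of all genes. Saa3 is counted as lower from 1 control cell of 83 and 0 of 34 mutant cells, where 0 allows a share of up to 8.82%. No smallest fold difference follows from these counts.

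For genes that stood high in a class, the log2 ratio of mutant to control in marrow stroma was 0.93 for Hp, 0.79 for Il1rn, -0.90 for Serpina3g and -1.74 for C3. It was -0.65 for C3 in fibroblasts. For Il1rn, marrow stroma cells without a globin UMI gave -0.16. Taking fibroblasts more widely, as cells above 0 for at least 1 gate marker with Pdgfra and Col1a1, gave 229 control and 93 mutant cells and a C3 ratio of 0.35, so the direction for C3 in fibroblasts depends on the gate. Relative to the genes at 10 CPM or more in both groups, whose median ratio was -0.16 in chondrocytes, -0.10 in fibroblasts and 0.00205 in marrow stroma, Cebpb was at 2.22, 3.97 and 2.11.

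**Figure D4:**
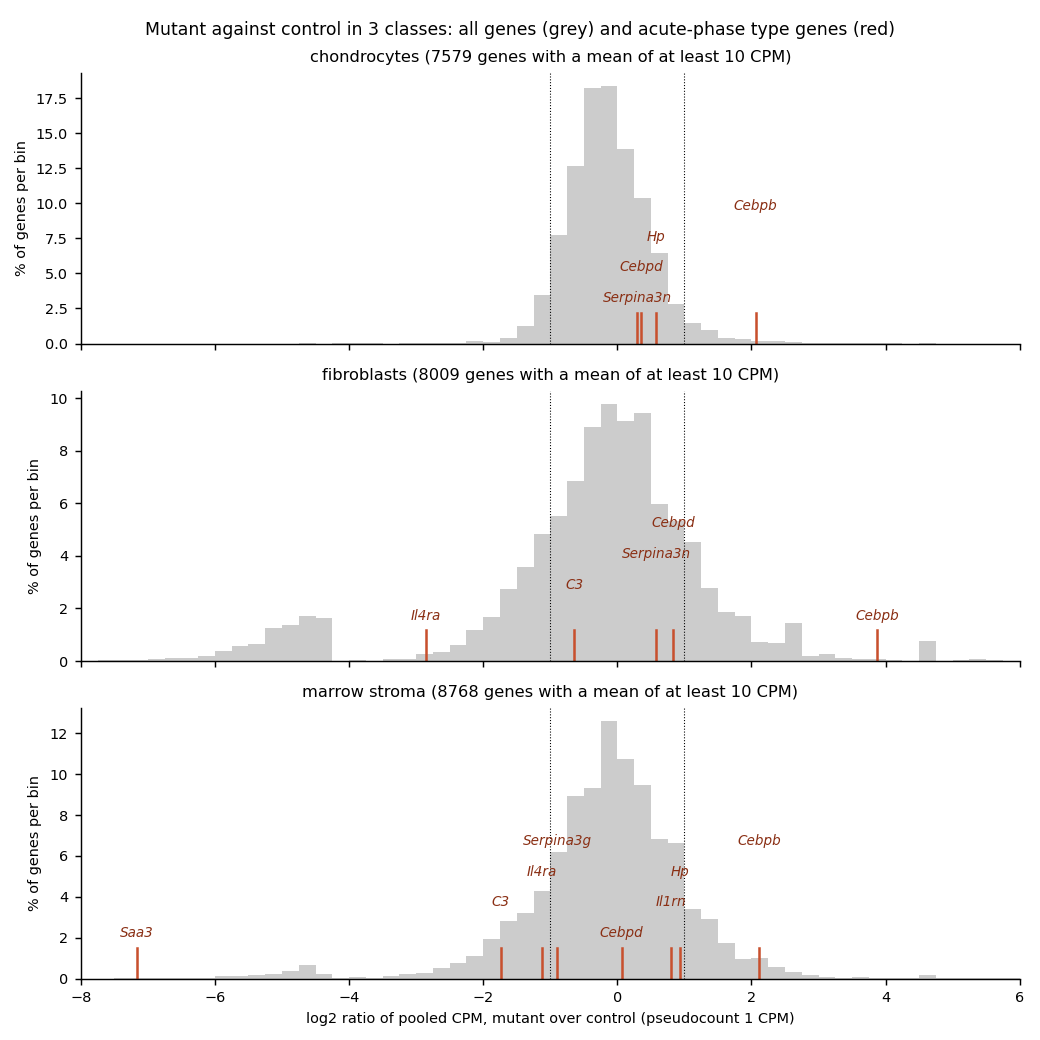
Distribution over all genes counted of the log2 ratio of mutant to control in chondrocytes, fibroblasts and marrow stroma (grey). The acute-phase type genes that passed the 10 CPM filter are in red. Cebpb stands at 2.06, 3.87 and 2.11 in chondrocytes, fibroblasts and marrow stroma.

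A wider list of 29 acute-phase genes was read in the same contrasts. Its genes, too, can pass the filter through the higher group alone, as Cfb did in fibroblasts. The list was chosen with earlier results of these data known, so its counts are a description. In marrow stroma against chondrocytes, 8 of 11 genes at the filter were at least 2-fold higher and 3 lower in the control (median log2 ratio 3.50, against 0.37 over all genes counted), and 7 higher and 1 lower in the mutant library (2.80 against 0.50). Over all genes, 27.9% were higher and 11.4% lower in the control, and 30.7% and 11.8% in the mutant library. Serping1, the inhibitor of the first complement component, was at 1235 against 36.0 CPM in control cells and 627 against 49.6 CPM in mutant cells. The copper carrier ceruloplasmin, Cp, was at 811 against 42.8 and 534 against 52.9 CPM. The long pentraxin Ptx3 was at 245 against 11.1 and 353 against 16.9 CPM. The metal-binding Mt1 and Mt2 and the protease inhibitor Timp1 were the genes lower in control marrow stroma, with Timp1 at 21.7 against 83.5 CPM.

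Fibroblasts shared part of this. Of the same list, 6 of 10 genes were higher and 1 lower than in chondrocytes of the control (median 2.25, against 0.21 over all genes), and 5 of 9 higher and 1 lower in the mutant library (2.04 against 0.26). Over all genes, 23.7% were higher and 12.7% lower in the control, and 27% and 16.9% in the mutant library. Serping1 was at 1026 against 36.0 and 2013 against 49.6 CPM. Cfb, the complement factor that forms a convertase with C3, was at 116 against 2.36 and 140.1 against 5.46 CPM. The lipopolysaccharide-binding protein gene Lbp was at 260.1 against 38.5 and 318 against 76.8 CPM.

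Between the libraries, 1 of 8 genes of the list was higher in mutant chondrocytes and 0 lower (median 0.37), 2 of 10 higher and 1 lower in fibroblasts (0.28), and 2 of 11 higher and 0 lower in marrow stroma (0.24). The shares of all genes were 3.76% higher and 5.59% lower in chondrocytes, 15.5% and 23.6% in fibroblasts, and 11.8% and 17.5% in marrow stroma, with medians of -0.18, -0.13 and -0.10, so these counts, of few genes, are near the background. Timp1 was at 83.5 CPM in control and 236 CPM in mutant chondrocytes. Mt1 was at 486 and 1013 CPM in fibroblasts and at 358 and 769 CPM in marrow stroma.

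The cytokines, receptors and regulators upstream of these genes made a list of 21, read with the same limits of filter and choice. In marrow stroma against chondrocytes, 6 of 12 were higher and 1 lower in the control (median 0.91 against 0.37, with 27.9% and 11.4% of all genes), and 7 of 12 higher and 0 lower in the mutant library (1.20 against 0.50, with 30.7% and 11.8%). The leukaemia inhibitory factor receptor Lifr was at 598 against 62.2 CPM in control cells and 230.0 against 58.0 CPM in mutant cells. Cebpa, which encodes C/EBP alpha, was at 115 against 3.87 and 314 against 8.37 CPM. Socs3, a feedback inhibitor induced by STAT3, was at 187 against 81.1 and 210.4 against 69.1 CPM.

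In fibroblasts against chondrocytes, 5 of 12 were higher and 0 lower in the control (0.32 against 0.21, with 23.7% and 12.7% of all genes), and 6 of 15 higher and 0 lower in the mutant library (0.78 against 0.26, with 27% and 16.9%). Il13ra1, which pairs with the Il4ra product in the type II receptor, was at 109 CPM in control fibroblasts against 7.71 CPM in chondrocytes. Between the libraries, 1 of 11 was higher and 1 lower in chondrocytes (-0.23), 1 of 13 higher and 2 lower in fibroblasts (0.02), and 2 of 13 higher and 2 lower in marrow stroma (-0.16). These counts are near the shares of all genes in the same comparisons, 3.76% higher and 5.59% lower, 15.5% and 23.6%, and 11.8% and 17.5%, and the values that follow are a description. Osmr, the oncostatin M receptor, was at 91.0 CPM in control and 21.1 CPM in mutant chondrocytes. Nfkbia, an inhibitor of NF-kB that is also its target, was at 96.4 and 215 CPM. In marrow stroma Cebpa was at 115 and 314 CPM, Lifr at 598 and 230.0 CPM and the interleukin-1 receptor Il1r1 at 110 and 39.1 CPM.

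The genes with the most similar pattern were read over 11 points, each a class in a library with at least 50 cells, by Pearson's r of log2(CPM + 1). The points share 2 libraries and differ in depth, so r is a description. Marrow stroma enters only through its control cells, so for genes high there alone r largely follows that point. For Hp the closest were Cish (0.966), Gm4951 (0.959) and Kng2 (0.943). Cish encodes a cytokine-induced inhibitor of the SOCS family. For Il1rn they were Gm16685 (0.996), Tmem178 (0.987) and Kng2 (0.940), and for Serpina3g Esm1 (0.969), Serpina12 (0.962) and Kng2 (0.959). Kng2, a kininogen gene, was thus among the closest 3 of each of the marrow stroma genes, and among these points was highest in control marrow stroma, at 235 CPM. For C3 the closest were Podn and Cfb (both 0.942) and Ramp2 (0.911), all highest in control fibroblasts among these points, which leave out mutant fibroblasts and mutant marrow stroma for their number of cells. For Cebpb they were Hmox1 (0.938), Dnajb9 (0.934) and Arid4b (0.931), of which Hmox1 encodes the stress-induced haem oxygenase 1, and for Cebpd they included Socs2 (0.966) and Gpx8 (0.951). For Saa3 they were Tmem178 (0.964), Il1rn (0.937) and Eepd1 (0.914), which rests on the 1 cell above.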

How the data were processed

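Cells of 1 control and 1 mutant library were profiled by 10x 3′ sequencing. Per the study's methods and labels, the authors used Partek Flow, STAR 2.7.3a, mm10, a Gencode annotation and SoupX for ambient RNA. The methods also name a mitochondrial limit of 5%, but 694 control and 492 mutant cells lie above it, so the step of the processing at which the tables were written, ambient correction included, is not given in the sources used here. The values deposited for genes are, for each cell, log2(CPM + 1). The deposited total per cell is an estimated count, mitochondrial and ribosomal shares are deposited as a percent, and the number of expressed genes is a deposited score.

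Estimated UMIs were (2 to the power of the value, minus 1) times the total over 1000000. Of these, 74.9% (control) and 97.3% (mutant) were whole numbers to within 0.1, so no count model was used. UMIs were summed by class (Python 3.11.15, NumPy 2.4.6, SciPy 1.17.1). Log2 ratios used a pseudocount of 1 CPM, and genes with a mean of at least 10 CPM over both groups were counted as called at 2-fold. Thinning was to 1000 UMIs, and ratio code was tested on simulated data. There is 1 library per genotype, so no test was made.

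The 10 genes, the lists and gates were chosen with earlier results of these data known. List genes were named if at least 2-fold apart with a mean of at least 50 CPM; Serpina3f by genotype, stress and blood cell markers, Stat3 and class markers were named after their values were seen. Similar genes were the 3 with the highest r for genes reaching 100 CPM in a class, of which 1 is not reported here. The alternatives tried were the pseudocount, the filter, the scaling, the weighting of cells, the gates, and leaving out cells by mitochondrial share, globin, total or level.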

Additional observations from a re-analysis of the deposited data

Results flagged for a closer look

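C3 differed in opposite directions between the libraries depending on the class. Its log2 ratio of mutant to control was 2.82 in lining cells and 1.10 in tendon cells, but -1.74 in marrow stroma. The difference between the classes was not tested, with 1 library per genotype. The tendon value rests on 3 mutant cells of 40 and the marrow stroma value on 2 mutant cells of 34, while 24 of 96 mutant lining cells carried C3.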

How the results depend on the processing

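Cebpb stayed at least 2-fold higher in the mutant library under 10 of 10 alternatives in chondrocytes, 15 of 15 in fibroblasts and 13 of 13 in marrow stroma. Hp in marrow stroma kept its direction in 13 of 13, Il1rn in 12 of 13, and C3 in fibroblasts in 13 of 15 (-3.49 to 0.35). The wide fibroblast gate and leaving out cells with Acan were chosen after seeing the data. The cause of the changes below was not tested.

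The number of genes at least 2-fold higher in mutant than control chondrocytes was 2 with cells above the 95th percentile of totals left out and with per-cell means, and 3 with no filter. In fibroblasts it was 2 without globin cells, with all 3 gate genes, with Pi16 or Dpp4, with per-cell means and with no filter, 3 with cells passing 2 gates kept and 4 with the wide gate, and in marrow stroma 3 with Adipoq or Lepr and with no filter. The number lower in mutant fibroblasts was 0 with cells passing 2 gates kept, 3 with all 3 gate genes (25 control and 3 mutant cells) and 2 without the top 3 cells.

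Against chondrocytes in the mutant library, fibroblasts had 5 genes higher at most 5% mitochondrial, with Pi16 or Dpp4 and with no filter, and 1 without the top 3 cells. The number lower was 1 without the highest totals, with per-cell means and with the other total, and 3 with no filter. In the control it was 1 with cells passing 2 gates kept, with all 3 gate genes and without the top 3 cells, and 3 with no filter, and 1 in marrow stroma with no filter.

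Some ratios to chondrocytes changed sign: Saa3 in control marrow stroma was -0.34 without globin cells, Serpina3n in mutant fibroblasts -3.43 without the top 3 cells and -3.77 with all 3 gate genes, and C3 in mutant marrow stroma -2.74 without the top 3 cells. Smaller ratios, under 2-fold as reported, also changed direction: Serpina3n in mutant marrow stroma against chondrocytes kept it in 10 of 14 alternatives (-3.43 to 0.85), Cebpd in control fibroblasts against chondrocytes in 12 of 16 (-0.26 to 0.53), and between the libraries Cebpd in marrow stroma in 8 of 13 (-0.44 to 0.93) and Serpina3n in fibroblasts in 13 of 15 (-4.48 to 2.33). No paired analysis was possible because each genotype has 1 library. The 17 mutant fibroblasts limit every value in that class to a floor of 38.2 CPM for 3 UMIs.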

Other observations

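Cells in no class held part of the marrow stroma genes. These are cells that met no gate and cells left out of the stromal classes for Ptprc, Pecam1 or Cdh5. Cells with Sox9 and Col2a1 but without the deposited mark can also fall here. Control cells of this group were richer in cartilage transcripts, with Col2a1 at 13517 CPM against 2491 CPM for mutant ones. Acan stood at 1362 against 153 CPM. The part of this difference in the values of cells in no class was not tested. Hp was at 11.1 CPM in control cells of no class and 237 CPM in mutant cells of no class, above 0 in 38 and 52 cells. Of these, 18 control and 29 mutant cells were above 0 for Adipoq or Lepr, and 23 and 44 for Cxcl12. Il1rn was at 0.979 and 70.1 CPM in the same cells, and all 24 mutant cells that held it were above 0 for Cxcl12. Ptprc, Pecam1 or Cdh5 was above 0 in 9 of those 24 cells. In cells passing 2 or more gates, C3 was at 93.9 CPM in control cells and 398 CPM in mutant cells, and Cebpb at 23.1 and 267 CPM. Taken over all cells, Hp was at 35.0 CPM in control cells and 173 CPM in mutant cells, a value that also follows the share of each class: marrow stroma was 1.69% of the control library and 2.54% of the mutant one.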
